A study of Homo sapiens with 4 samples.

Results

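The 10 genes described here encode the RNA polymerase I subunits POLR1A, POLR1B, POLR1C, POLR1D, POLR1E, POLR1F, POLR1G and POLR1H and the core factors UBTF and RRN3. They were taken as every probe set to which the platform's gene table gives 1 symbol, and that symbol among these names. This gave 31 probe sets of 49395 on the array and 10 genes of 18132. Their mRNA was read in U87MG, an established human glioblastoma cell line grown with fetal bovine serum, after 24 h with 10 µM mycophenolic acid (MPA), with 10 µM MPA plus 100 µM guanosine, with 100 µM guanosine, or with DMSO, the solvent control. Each condition was hybridised to 1 Affymetrix PrimeView array, so 4 arrays in all. Without replicates the spread between cultures is unknown, so every difference below is one between 2 arrays and none was tested.

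RNA polymerase I works in the nucleolus, where it transcribes the repeated ribosomal DNA into the precursor of the large ribosomal RNAs. UBTF coats the active repeats, the SL1 complex marks the promoter, and RRN3 brings the polymerase to it. MPA inhibits IMP dehydrogenase, which commits IMP to guanine nucleotides, a step that the salvage of guanosine bypasses. The title of the series is about IMP dehydrogenase-2 and the nucleolus, and the question here is how the mRNAs of this nucleolar polymerase stood with MPA, with and without guanosine.

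All 10 genes had their lowest signal of the 4 arrays with MPA alone in the deposited values; this held for 8 after cyclic loess between the arrays or centring on the median gene, and for 3 (POLR1A, POLR1D and POLR1E) with every array shifted to its poly-A spike-ins. Over all 11019 genes above the floor on at least 1 array, the MPA array was the lowest in 42%. The floor is the median signal of the array, 63.0, and a gene below it on both arrays of a comparison was not compared. One probe set stands for each gene, that of the highest mean signal among those not of the _x_at type; all 10 genes were above the floor on all 4 arrays. In MPA against control, 10 of 10 genes were lower, or 9 after cyclic loess, where 49.7% of 10951 genes were. Their median log2 difference was -0.40, against 0.0024 for all genes compared. At 1.5-fold, 3 of 10 were lower (POLR1A, POLR1D and POLR1E), against 7.52% of all genes, and at 2-fold 1 of 10 (POLR1E), against 1.42%. The count at 1.5-fold was 2 after cyclic loess, centring or an offset of 32, without POLR1A, and 2 with each gene taken as the median over its probe sets, without POLR1D. POLR1D is counted by the probe set that stands for it, and another of its 3 probe sets was 0.57 higher with MPA than in the control. The poly-A spike-in transcripts, which are added to the RNA before labelling, also read lower with MPA: all 12 of their probe sets did, by a median log2 difference of -0.29. On the other arrays they read higher than in the control, by medians of 0.22 with guanosine and 0.27 with MPA plus guanosine, with 0 of 12 lower on each. With every array shifted to its spike-ins, the median of all genes in MPA against control became 0.35 and that of the 10 genes -0.06, with 8 of 10 lower. The 10 genes then lay 0.41 below the median of all genes, and 0.40 below it in the deposited values. The shift adds the same value to every gene of an array, so this gap could change only through which genes were compared. Its staying alike is therefore no check of the result. The shift was not the median of -0.29 itself: it took POLR1A from -0.59 to -0.25 in MPA against control. The part of the spike-in difference in the result was not tested.

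**Figure D1:**
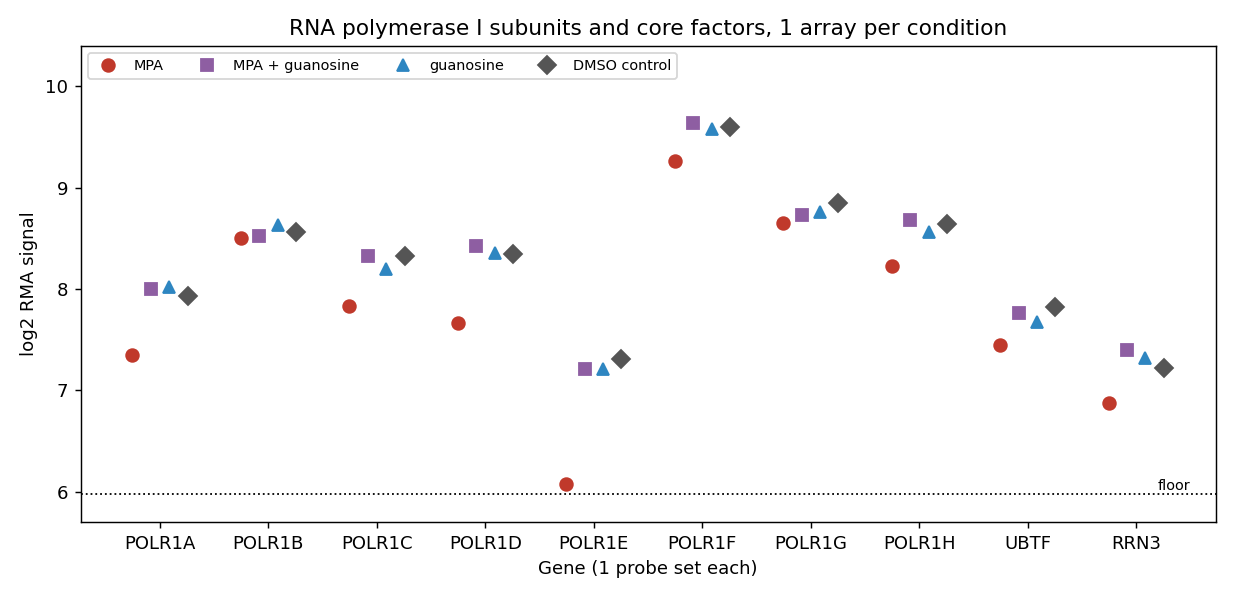
Log2 RMA signal (vertical axis) of the probe set standing for each of the 10 genes (horizontal axis), with 1 point per array: MPA (circle), MPA plus guanosine (square), guanosine (triangle) and DMSO control (diamond); the dotted line is the floor. In these deposited values the MPA point is the lowest of the 4 in all 10 genes (in 3 of them with the spike-in shift), and the other 3 points of a gene lie within 0.18 of each other.

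POLR1E showed the widest range of the 10 genes. It encodes a peripheral subunit that pairs with POLR1G and is the counterpart of a yeast subunit involved in initiation and elongation. Its signal was 67.5 with MPA, 149 with MPA plus guanosine, 149 with guanosine and 159 in the control. The MPA array stood alone, close to the floor, and the other 3 arrays lay within 0.09 of each other on the log2 scale. The difference of MPA from control was -1.23 in log2, or 2.35-fold lower, and 57 of the 10951 genes compared were lower still. The other 2 probe sets of POLR1E, brighter and of the _x_at type, whose probes can bind other sequences, gave -1.08 and -0.93. The brightest had a signal of 183 with MPA, 372 with MPA plus guanosine, 395 with guanosine and 386 in the control.

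POLR1G, the partner of POLR1E, differed less. Its signal was 402 with MPA, 426 with MPA plus guanosine, 434 with guanosine and 462 in the control. The MPA array was lowest by a narrow margin, with a log2 difference from control of -0.20 and from guanosine of -0.11. After cyclic loess or centring, POLR1G and POLR1B were the 2 genes in which it was not the lowest, and with the spike-in shift POLR1G was 0.13 higher with MPA than in the control. Its other 2 probe sets differed from control by -0.31 and -0.14, and the dimmer of them was lowest with guanosine, at 62.5, not with MPA, at 63.5.

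The catalytic core is formed by POLR1A, the largest subunit, and POLR1B, the second largest. POLR1A had a signal of 163 with MPA, 256 with MPA plus guanosine, 260 with guanosine and 244 in the control. MPA was again apart from the other 3 arrays, at -0.59 from control, which is at the edge of the 1.5-fold count. The other probe set of POLR1A was below the floor on all 4 arrays. POLR1B had a signal of 363 with MPA, 368 with MPA plus guanosine, 397 with guanosine and 379 in the control. The MPA array was lowest, but its difference of -0.06 from control was smaller than the range of 0.11 among the other 3 arrays. This probe set is of the _s_at type, whose probes can match transcripts of several genes. The 5 other probe sets of POLR1B ran from -0.40 to 0.10 in MPA against control, all above the floor.

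POLR1C and POLR1D form the assembly platform of the enzyme and are also subunits of RNA polymerase III. POLR1C had a signal of 228 with MPA, 321 with MPA plus guanosine, 295 with guanosine and 320 in the control. Its difference of MPA from control was -0.49, and its _x_at probe set gave -0.36. Both put the MPA array below the other 3.

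POLR1D gave opposite answers on its 3 probe sets. The probe set that stands for the gene, designed on the transcript NM_152705, had a signal of 203 with MPA, 344 with MPA plus guanosine, 327 with guanosine and 325 in the control. Another, designed on the sequence AF131855, had 205 with MPA, 321 with MPA plus guanosine, 289 with guanosine and 305 in the control. The probe set designed on NM_015972 had 252 with MPA, 158 with MPA plus guanosine, 148 with guanosine and 170 in the control. The MPA array was thus the lowest of the 4 on the NM_152705 and AF131855 probe sets and the highest on that of NM_015972. In MPA against control the log2 differences were -0.67, -0.57 and 0.57, and in MPA plus guanosine against MPA they were 0.76, 0.65 and -0.68. The RefSeq gene table lists both NM_152705 and NM_015972 as transcripts of POLR1D. The log2 difference of the NM_152705 probe set minus that of the NM_015972 probe set was -1.25 in MPA against control and -0.02 in MPA plus guanosine against guanosine. Of 6262 genes with at least 2 probe sets above the floor in MPA plus guanosine against MPA, 16 (0.256%) had one probe set at least 1.5-fold higher and another at least 1.5-fold lower, and POLR1D was 1 of them; 7 others of the 10 genes had at least 2 such probe sets and did not. In MPA against control 7 genes did so, and POLR1D was not among them, as its highest value, 0.57, falls short of 1.5-fold. POLR1D was singled out after its values were seen, and which transcripts the probes bound in these cells was not tested.

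**Figure D2:**
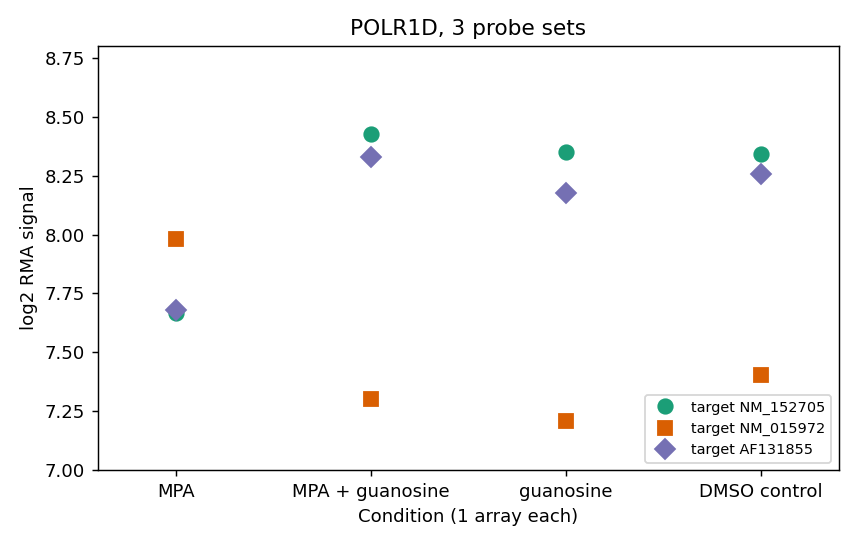
Log2 RMA signal (vertical axis) of the 3 POLR1D probe sets, named by the sequence each was designed on, on the arrays of MPA, MPA plus guanosine, guanosine and DMSO control (horizontal axis, 1 array each). With MPA, the NM_015972 probe set is at its highest, 7.98, and the other 2 are at their lowest, 7.67 and 7.68.

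The gene has 2 annotated starts in the RefSeq promoter table (GRCh38.p14), both on the plus strand. Their 250 upstream bases are shown because the probe sets of the gene disagree; capitals mark CCAAT, a promoter element, which start 2 lacks in this window.
POLR1D start 1, chr13:27620493-27620742: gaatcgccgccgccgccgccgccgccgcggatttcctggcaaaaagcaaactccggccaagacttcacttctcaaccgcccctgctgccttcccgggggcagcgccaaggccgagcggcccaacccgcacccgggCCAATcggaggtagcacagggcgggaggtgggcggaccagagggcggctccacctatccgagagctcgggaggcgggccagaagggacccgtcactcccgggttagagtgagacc
POLR1D start 2, chr13:27621642-27621891: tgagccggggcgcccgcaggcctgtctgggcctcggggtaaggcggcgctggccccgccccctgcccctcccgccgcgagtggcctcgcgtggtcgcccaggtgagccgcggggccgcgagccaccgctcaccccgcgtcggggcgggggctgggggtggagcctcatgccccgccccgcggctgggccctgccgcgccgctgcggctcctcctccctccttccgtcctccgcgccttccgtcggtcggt
No value here ties either start to a probe set.

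POLR1F, the subunit that contacts RRN3 during initiation (known best from the yeast enzyme), had a signal of 616 with MPA, 796 with MPA plus guanosine, 768 with guanosine and 778 in the control. The difference of MPA from control was -0.34, with -0.23 and -0.20 on its other 2 probe sets, and MPA was the lowest array on all 3. POLR1H, a small subunit needed for cleavage of RNA in a paused enzyme, had a signal of 300.1 with MPA, 412 with MPA plus guanosine, 379 with guanosine and 398 in the control. MPA was apart from the other 3 arrays, at -0.41 from control, on the only probe set of this gene.

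UBTF, the architectural factor of active ribosomal DNA, had a signal of 174 with MPA, 218 with MPA plus guanosine, 204 with guanosine and 227 in the control. Its difference of MPA from control was -0.38. A second probe set above the floor gave -0.41 with MPA lowest, and another gave -0.10 with MPA plus guanosine lowest, at 136 against 139 with MPA. RRN3, the initiation factor through which growth signals reach the polymerase, had a signal of 118 with MPA, 168 with MPA plus guanosine, 160 with guanosine and 149 in the control. The difference of MPA from control was -0.34 on this probe set and -0.09 and -0.06 on the other 2, whose signals all lay between 74.2 and 82.2. The RRN3 value therefore rests on 1 probe set, and the median of its probe sets was -0.09. RRN3 has near-identical copies, RRN3P1 and RRN3P2, and 1 further probe set that the table gives to all of them was left out.

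Taking every probe set on its own, 28 of the 31 were above the floor on at least 1 array. They are repeated readings of the 10 genes on the same arrays, some designed on the same sequence, and are not independent. The counts are of the deposited values. In MPA against control 26 of the 28 were lower, where 51.9% of 23970 probe sets were, and 5 of 28 were at least 1.5-fold lower, against 7.56%. The exceptions were the NM_015972 probe set of POLR1D at 0.57 and an _x_at probe set of POLR1B at 0.10. The MPA array was the lowest of the 4 on 23 of 28 probe sets, against 43.5% of all. All 3 POLR1E values lie below every other probe set of the 10 genes.

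**Figure D3:**
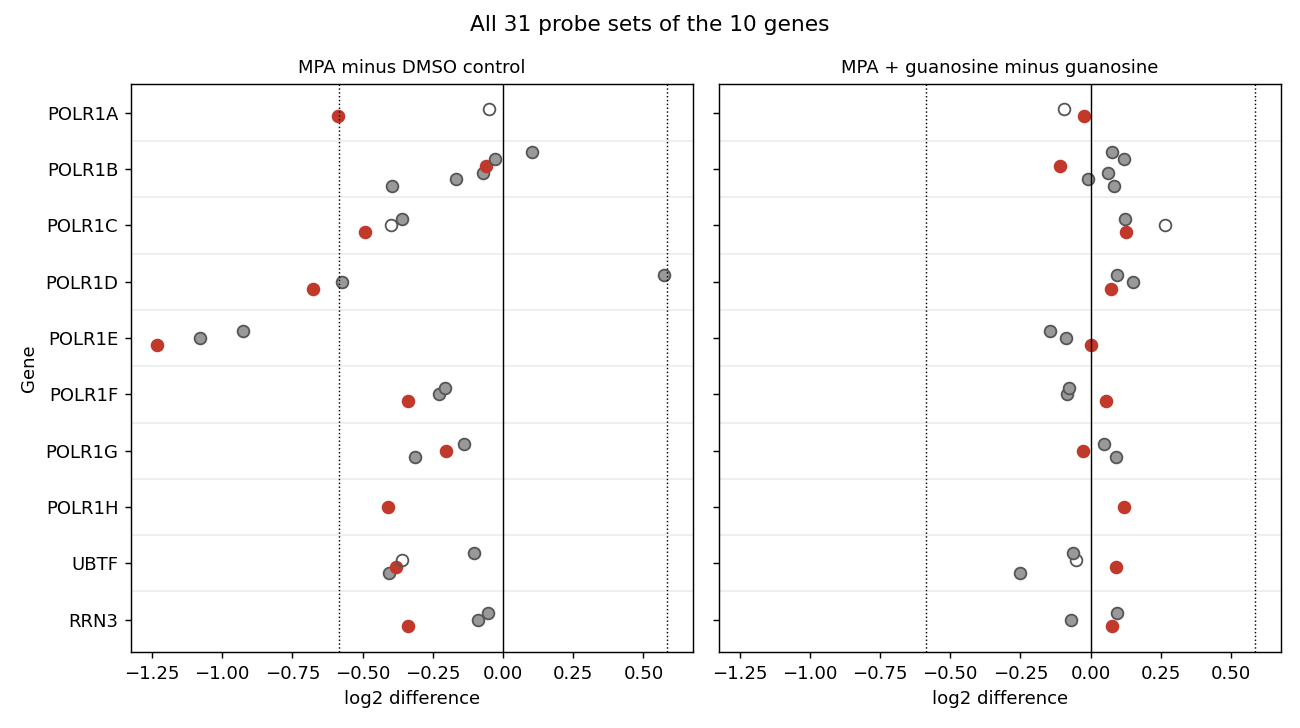
Log2 difference (horizontal axis) of all 31 probe sets, by gene (vertical axis), for MPA minus DMSO control (left) and MPA plus guanosine minus guanosine (right). Red points stand for the gene, grey points are its other probe sets, open points are below the floor on all 4 arrays, and dotted lines mark 1.5-fold; the left panel spans -1.23 to 0.57 and the right one -0.25 to 0.27.

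When guanosine was present, the arrays with and without MPA lay close together in these genes. In MPA plus guanosine against guanosine, a comparison that has no array in common with the first one, the 10 genes had a median of 0.06 and ran from -0.11 (POLR1B) to 0.13 (POLR1C), with 6 higher, 3 lower and POLR1E at 0. The median of all 10599 genes compared was 0.02. At 1.5-fold 0 of 10 genes passed in either direction, and 0.0189% of all genes did. The difference that MPA made with guanosine minus the one it made without was 1.23 for POLR1E, 0.75 for POLR1D, 0.62 for POLR1C, 0.56 for POLR1A and -0.05 for POLR1B on the log2 scale. For the other genes it ran from 0.17 (POLR1G) to 0.53 (POLR1H). The NM_015972 probe set of POLR1D, not used here, was at 0.57 without guanosine and 0.09 with it. With the spike-in shift the difference of differences was 0.91 for POLR1E, 0.42 for POLR1D, 0.29 for POLR1C and 0.24 for POLR1A. It was then -0.37 for POLR1B, -0.15 for POLR1G and between 0.07 and 0.20 for the others. With each gene taken as the median over its probe sets that of POLR1B was 0.14. With 1 array a condition this difference of differences was not tested.

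MPA plus guanosine against MPA alone shares the MPA array with the first comparison, so the values lean the opposite way by construction. All 10 genes were higher with both compounds than with MPA alone, where 52% of 10956 genes were, and the median was 0.48 against 0.02 for all genes. At 1.5-fold 3 of 10 were higher, against 8.82%: POLR1E was 2.20-fold higher, POLR1D 1.69-fold and POLR1A 1.58-fold. POLR1B differed by 0.02 and POLR1G by 0.08. After cyclic loess between the arrays these were -0.08 and -0.02, and the median was 0.38. With the arrays shifted to their spike-ins the median was -0.13, with 7 of 10 genes lower, where the median of all genes was -0.62.

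The conditions other than MPA alone lay close together in the deposited values; with the spike-in shift both guanosine conditions were lower than the control in 10 of 10 genes, by medians of -0.33 and -0.26, where the medians of all genes were -0.29 and -0.26. Guanosine against control gave a median of -0.05 over the 10 genes, from -0.15 (UBTF) to 0.10 (RRN3), and MPA plus guanosine against control gave 0.02, from -0.12 (POLR1G) to 0.18 (RRN3). At 1.5-fold 0 of 10 genes passed in either comparison, against 0.497% and 0.637% of all genes. Across these 3 arrays the range of a gene was between 0.05 and 0.18, and the median gene of 10145 above the floor on all 4 arrays had a range of 0.13. Over all 4 arrays the median range was 0.48 for the 10 genes and 0.31 for all genes. Set against guanosine in place of the control, MPA gave 10 of 10 genes lower, against 50%, with a median of -0.35, and 3 of 10 at least 1.5-fold lower, against 7.76%. This comparison uses the same MPA array as MPA against control, so it is no separate reading of MPA. With the spike-in shift 7 of 10 were higher, with a median of 0.26 where that of all genes was 0.64.

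The rest of the initiation machinery was also lower with MPA in the deposited values (3 of 6 genes with the spike-in shift), and the subunits that RNA polymerase I shares with the other polymerases lay on both sides of 0. SL1 consists of the proteins of TBP, which binds TATA boxes, and of TAF1A to TAF1D, and TTF1 ends transcription. For the counts of these lists, 49.7% of all genes were lower and 7.52% at least 1.5-fold lower. These 6 genes were lower in 6 of 6 cases with a median of -0.37 in MPA against control. TAF1A differed by -1.04 (55.8 with MPA, below the floor, and 115 in the control), TAF1D by -0.61 and TTF1 by -0.44, while TAF1B differed by -0.04. For TAF1A, its 3 further probe sets above the floor ran from -0.91 to -0.02. The 5 shared subunits had a median of 0.10 with 3 higher and 2 lower, from POLR2F at -0.28 to POLR2E at 0.16, and 0 of 5 passed 1.5-fold. Other probe sets of POLR2E ran from -0.42 to 0.18.

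RNA polymerase II, which makes mRNA, had a median of -0.04 over 7 subunit genes, with 6 lower, or 0.02 with 3 lower after cyclic loess; POLR2D was at -0.61 and POLR2A, its largest subunit, at 0.41. For RNA polymerase III, the enzyme of transfer RNA and 5S RNA genes, the 8 specific subunits analysed here had a median of -0.29, and 7 were lower. POLR3K was at -0.75, POLR3G at -0.56 and POLR3C at -0.54. POLR3GL, the paralog that can take the place of POLR3G in the enzyme, was at 0.28. Of the regulators of ribosomal DNA transcription and nucleolar cofactors, 14 of 14 were lower (13 after cyclic loess, 8 with the spike-in shift), with a median of -0.42, and 4 passed 1.5-fold. MYC, which activates transcription by all 3 polymerases, read 284 with MPA against 791 in the control, or -1.48 in log2. The processing chaperone NOLC1 was at -0.96 and the helicase DDX21 at -0.91, while the deacetylase SIRT7 was at -0.08. BAZ2A was at -0.26, but another of its probe sets above the floor was at 0.25. In MPA plus guanosine against guanosine the medians of these 5 lists lay between -0.02 and 0.08. With the arrays shifted to their spike-ins, the medians in MPA against control were 0.43 for the shared subunits, 0.29 for RNA polymerase II and 0.04 for RNA polymerase III, with 5 of 5, 6 of 7 and 4 of 8 genes higher.

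**Figure D4:**
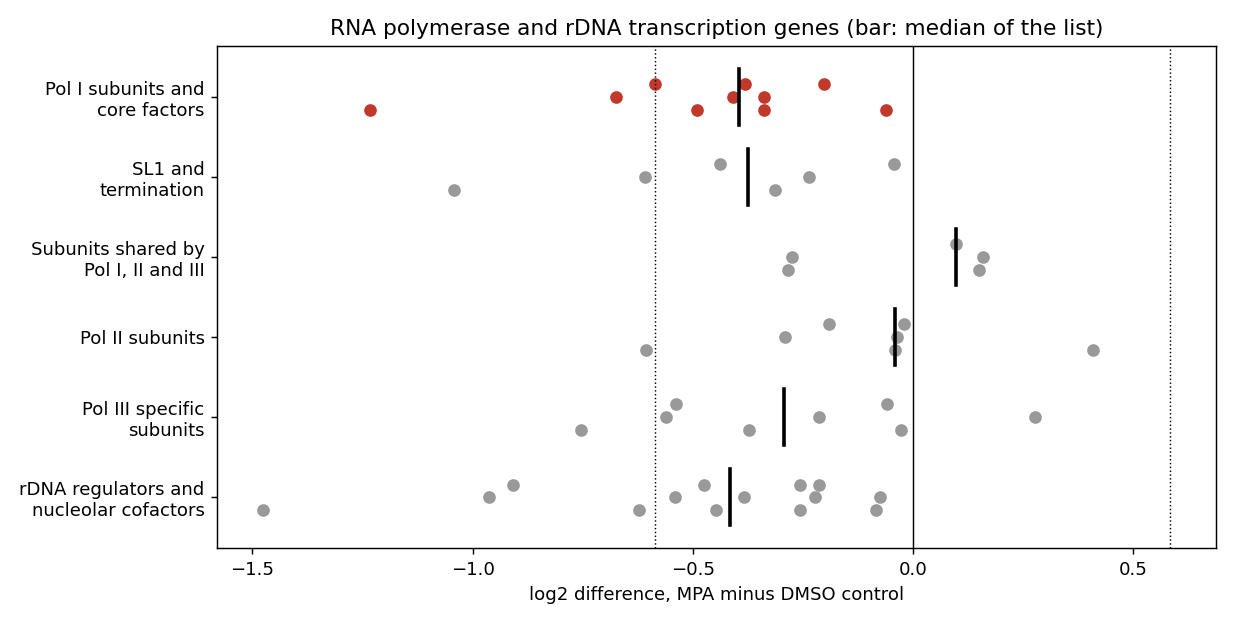
Log2 difference of MPA minus DMSO control (horizontal axis) for the genes of 6 lists (vertical axis), with 1 point per gene, a bar at each list's median and dotted lines at 1.5-fold. The 10 genes described here (red) have a median of -0.40, and the subunits shared by the 3 polymerases are the list with a median above 0, at 0.10; after cyclic loess that of RNA polymerase II is also above 0, at 0.02, and with the spike-in shift that of RNA polymerase III too, at 0.04.

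MYC binds the E-box CACGTG, so the promoters were searched for it, and also for the ETS core CCGGAA and for CCAAT, on both strands from 250 bases before to 50 after each start. The RefSeq promoter table (GRCh38.p14) held 13 starts for 9 of the 10 genes. The E-box was in 1 of the 13 (7.69%), and in 7.26% of all 35116 promoters. That promoter belongs to POLR1G, whose difference with MPA was the second smallest of the 10 genes. The ETS core was in 5 of 13 (38.5%), in POLR1B, POLR1C and RRN3, against 17.2% of all, and CCAAT in 4 of 13 (30.8%), in POLR1D, POLR1H and RRN3, against 34.6%. The starts of one gene can overlap, so the 13 are not independent. The promoters of POLR1G, with the E-box, and of POLR1C, with the most ETS cores, are shown with each motif in capitals; both are on the plus strand, and in POLR1C one pair of matches on opposite strands overlaps.
POLR1G, chr19:45406394-45406643: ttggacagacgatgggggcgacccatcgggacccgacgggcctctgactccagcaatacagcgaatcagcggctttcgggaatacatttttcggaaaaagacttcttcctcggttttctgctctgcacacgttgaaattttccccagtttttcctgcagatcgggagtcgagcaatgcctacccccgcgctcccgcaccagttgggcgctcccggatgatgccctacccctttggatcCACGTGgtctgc
POLR1C, chr6:43516839-43517088: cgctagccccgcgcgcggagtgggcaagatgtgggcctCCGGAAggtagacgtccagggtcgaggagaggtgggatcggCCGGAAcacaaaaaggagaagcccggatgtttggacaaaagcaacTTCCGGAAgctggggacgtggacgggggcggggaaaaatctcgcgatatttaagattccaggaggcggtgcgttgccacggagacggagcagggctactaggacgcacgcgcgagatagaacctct
A match describes the letters in this window and shows no binding.

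The genes most like the median profile of the 10 over the 4 conditions were RTCA, ADAMTS18, SEC24A, MEAF6 and SACM1L, among 10135 other genes above the floor on all 4 arrays. Likeness was the root mean square difference between centred log2 profiles, and it was 0.0088 for RTCA, an RNA cyclase gene, and 0.014 for SACM1L, a phosphoinositide phosphatase gene. For POLR1E they were CDCA4 (0.0077), SHCBP1, DTL, MCM2 and LCORL (0.030). MCM2, a subunit of the replicative helicase, had a signal of 273 with MPA, 612 with MPA plus guanosine, 618 with guanosine and 676 in the control. With 4 conditions, and 3 of them close together, such likeness mainly says that a gene was lower by a similar amount with MPA.

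The array also carries control probe sets for ribosomal RNA, the product of this polymerase. The middle probe set of 28S RNA had a signal of 903 with MPA, 712 with MPA plus guanosine, 745 with guanosine and 1453 in the control, and the 5' probe set had 829 with MPA, 682 with MPA plus guanosine, 695 with guanosine and 1178 in the control. The control array was the highest on both, and the MPA array lay above both guanosine arrays, unlike the 10 genes. The 3' probe set of 28S RNA was below the floor on all 4 arrays. The 3 probe sets of 18S RNA differed from control by between -0.17 and 0.35 with MPA. The middle one had 767 with MPA, 940 with MPA plus guanosine, 966 with guanosine and 861 in the control. The 5' one had 953 with MPA, 1021 with MPA plus guanosine, 1087 with guanosine and 966 in the control. On these the MPA array was the lowest, as in the 10 genes, and on the 3' one it was the highest, at 1368. The array is made for mRNA, and the relation of these control probe sets to the amount of ribosomal RNA was not tested.

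As a check of the cells, 6 of 6 glioma and mesenchymal markers, such as VIM at 18322 to 20014, were above the floor on all 4 arrays; NES was lower, at 142 with MPA against 221 in the control (-0.63 in log2). Their summed signal was 38736 with MPA and 38971 to 39748 on the other arrays, most of it from VIM, FN1 and CD44. Of the defining markers of other cell types, PTPRC of leukocytes (10.3 to 11.7) and PECAM1 of endothelium (8.24 to 9.12) were far below the floor throughout, whereas VWF (80.1 to 111) and KDR (95.4 to 126) of the endothelial list and CLDN4 (93.4 to 140) of the epithelial list were above it on all 4 arrays. ERG of the endothelial list read 123 with MPA against 43.5 in the control, and EPCAM of the epithelial list 102 with MPA against 55.5 in the control. The summed leukocyte list was 1943 with MPA and 1269 to 1407 on the other arrays, with CD68 the 1 of 5 genes above the floor; the epithelial list was 434 with MPA and 326 to 373 elsewhere, the endothelial list 395 with MPA and 312 to 333 elsewhere, the astrocyte list 499 with MPA and 476 to 521 elsewhere, and the neuron and oligodendrocyte list 2109 with MPA and 1364 to 1495 elsewhere, mostly SNAP25. The part of these lists in the results was not tested. Fewer cells of a type and less RNA per cell cannot be told apart in such bulk samples. Array medians lay between 61.8 and 64.5, and the control array correlated with the other 3 at r between 0.990 and 0.997 across probe sets, which are not independent replicates. The 6 background control probe sets of high GC content differed from the control array by a median log2 of 0.26 with MPA. With guanosine this was -0.08, and with MPA plus guanosine -0.15. The part of this difference in the results was not tested.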

How the data were processed

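The authors deposited probe set intensity values made by RMA on a linear scale, per the labels; their settings, software, versions and array annotation: not given in the sources used here. RMA includes quantile normalisation of the probes, which hides a change in total mRNA per cell. From these, log2 values were taken with Python 3.11.15 and pandas 2.3.3. Control probe sets (102) and probe sets with several symbols (1832) or none (2473) entered no gene. A gene was its probe set with the highest mean, _x_at only where there was no other. A gene was compared when its brighter array reached the floor of 63.0 (5.98 in log2). Folds of 1.5 and 2 were counted, with no test, since each condition has 1 array; precision is limited by that number. The counting was checked on simulated data. All 10 genes were to be named, with up to 3 genes at each end of the other lists and the 5 most similar genes. The members and lists were chosen with earlier results of these data known. The 8 alternatives were other probe set rules, floors, an offset of 32, cyclic loess (limma 3.58.1, 3 iterations) and centring; 1 more, the shift to spike-ins, was chosen after seeing the data. Promoter sequences are from RefSeq (GRCh38.p14); no other coordinates are used.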

Additional observations from a re-analysis of the deposited data

Results flagged for a closer look

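The difference that MPA made had opposite signs without guanosine (MPA against control) and with it (MPA plus guanosine against guanosine) for the median of the 10 genes and for 6 of the 10 genes. The difference between the effects was not tested, since each condition has 1 array. The median was -0.40 without and 0.06 with guanosine. POLR1C differed by -0.49 without and 0.13 with guanosine, POLR1D by -0.67 and 0.07, and POLR1F by -0.34 and 0.05. POLR1H differed by -0.41 without and 0.12 with guanosine, UBTF by -0.38 and 0.09, and RRN3 by -0.34 and 0.08. The NM_015972 probe set of POLR1D had the same sign in both, at 0.57 without and 0.09 with guanosine. Of the other probe sets of RRN3, one was at -0.09 without and -0.07 with guanosine, and one at -0.06 and 0.10. With each gene taken as the median over its probe sets, POLR1F and UBTF had the same sign in both, at -0.08 and -0.06 with guanosine, and POLR1B and POLR1G had opposite signs, at 0.07 and 0.05. The count was 7 after cyclic loess and 9 with the spike-in shift. The values with guanosine are of the size of the range among the 3 arrays other than MPA, 0.05 to 0.18.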

How the results depend on the processing

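No paired analysis was possible because each condition has 1 array. With no replicates, a log2 value counted as moved when it changed by more than 0.098. This is the SD of all genes' log2 differences between the closest pair of arrays, and it does not apply to counts of genes. In MPA against control, all genes compared stayed lower under 7 alternatives, 10 of 10 or, with the floor at the 75th percentile, 6 of 6; after cyclic loess 9 of 10 were lower, POLR1B being at 0.01. The shift to the spike-ins, chosen after seeing the data, moved the most. In MPA against control it gave a median of -0.063, 1 gene at 1.5-fold and 0 at 2-fold, with 233 and 39 of all genes, and list medians of -0.043 for SL1 and termination, 0.43 for shared subunits, 0.29 for RNA polymerase II, 0.040 for RNA polymerase III and -0.083 for the regulators and cofactors. In MPA plus guanosine against MPA it gave a median of -0.13 and 0 genes at 1.5-fold, with 77 of all genes. In MPA against guanosine it gave 0.26 and 0 genes, with 64 of all genes. In guanosine against control and both against control the medians were -0.33 and -0.26, with 287 and 269 of all genes past 1.5-fold. With the floor at the 75th percentile, which leaves 4 genes, POLR1A and POLR1E among them, out of MPA against control, 1 gene was at 1.5-fold and 0 at 2-fold, with 594 and 112 of all genes, the RNA polymerase III median was -0.54, and the counts of all genes past 1.5-fold in guanosine against control and both against control were 29 and 32. With the offset of 32, 0 genes and 81 of all genes were at 2-fold in MPA against control, and those counts were 33 and 33. Of all genes past 1.5-fold in MPA plus guanosine against guanosine, there were 7 with no filter and 1 with the higher floor, the offset, values set to the floor or the spike-in shift. Cyclic loess gave a median of 0.38 in MPA plus guanosine against MPA. Taking each gene as the median over its probe sets moved 16 of 60 gene values, and no median over the 10 genes or over a list. It took the count at 1.5-fold lower in MPA against control from 3 to 2 of the 10 genes, and from 824 to 745 of all genes. The causes were not tested.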
